A study of Sinibotia superciliaris with 2 samples.

Results

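The enzymes of purine synthesis and salvage were compared between the black and the yellow skin of the loach Sinibotia superciliaris (Botia superciliaris). They were found by name. Of 10 Swiss-Prot entry names fixed for these enzymes, 8 were the best protein match of a unigene (an assembled transcript unit of the files). Each of the 8 was carried by a single unigene in the deposited annotation. That annotation covered 4.55% of unigenes, so further unigenes of these enzymes may lie outside it. These 8 unigenes stood among 124650 unigenes in all, of which 5675 had a protein match that gave a gene name. Unigenes with the same match were summed, which made 4058 genes. The IMP dehydrogenase entries IMDH1 and IMDH2 were not among the matches used here. RNA came from wild adult fish of 6.25 ± 0.30 g and 8.75 ± 0.20 cm, and skin of both colours was taken from 6 individuals. The labels give no genotype or treatment, and do not say what the ± values are or whether the fish were pooled. A single library of black skin, with 35386871 reads, and a single one of yellow skin, with 38323075 reads, were made. No difference below has a replicate check, no p-value can be given, and each comparison is between these libraries only.

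Cells make purine nucleotides from small precursors on a sugar phosphate called PRPP, in a chain of steps that ends in IMP, from which AMP and GMP branch. They also salvage ready-made bases by joining them to PRPP. In fish skin the pathway has a further use. Iridophores, the reflecting pigment cells, fill their platelets with guanine, and the pteridine pigments of the yellow xanthophores are made from GTP. In zebrafish, mutants of gart and of paics have reduced pigmentation.

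The enzymes, with their gene symbols, were PPAT (entry PUR1), which commits PRPP to the chain, GART (PUR2), a trifunctional enzyme of the early steps, and PFAS (PUR4), which adds an amide nitrogen. They went on with PAICS (PUR6), which carboxylates the ring precursor and adds aspartate, ADSL (PUR8), which splits off fumarate, and ATIC (PUR9), which closes the ring to IMP. ADSL also acts in the branch to AMP. GMPS (GUAA) makes GMP, and APRT (APT) salvages adenine to AMP. Levels are given as RPM, reads per 1000000 reads of the library. RPM is not divided by transcript length, so levels are compared between libraries and never between enzymes. The bracketed range after a ratio of RPM is its approximate 95% interval for counting error alone. Log2 ratios set black over yellow after 1 RPM was added to each level, which understates the differences of low genes.

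The purine enzymes did not move together. PPAT and GMPS were 1.80-fold higher in the black library, PAICS and ATIC were higher by less, GART sat with the bulk of genes, and PFAS showed no difference beyond counting error. ADSL and APRT were higher in the yellow library, APRT by far the more. The unigene called APRT is named from its match to bacterial entries, and whether it is the fish gene was not settled. APRT was 3.28-fold higher in the yellow library. It was the only one of the 8 at least 2-fold apart, a rule that 0.960% of the 3644 genes with a mean of at least 1 RPM met in either direction, 0.823% in the black and 0.137% in the yellow direction. The call of APRT was lost with a pseudocount of 5, at a log2 ratio of -0.63, and at a minimum mean of 5 RPM, which leaves it out. It was also lost, at -0.20, when its whole assembly component was summed. That sum adds the reads of a unigene matched to another gene, the small GTPase RAB34. Summing the component of GMPS brought its ratio from 1.80 to 1.16, near the median ratio of all genes. All 8 enzymes passed the minimum of 1 RPM. Their log2 ratios ran from -1.26 to 0.78 with a median of 0.30. Over all 3644 genes the median was 0.21 and the SD across genes 0.30. Of the 8, 4 lay above the median of all genes and 4 below it. Added up, they reached 178 RPM in the black and 157 RPM in the yellow library, a ratio of 1.14 (1.08 to 1.19), where the median ratio of all genes was 1.17. TMM scaling, which assumes that most unigenes do not differ, divides every ratio by 1.14, and the summed ratio then lies at the point of no difference. RPM is a share of all reads, and the 2 most abundant unigenes took 6.81% of the black and 17.0% of the yellow library. With these 2 left out of the totals, the median log2 ratio of all genes was 0.05 in place of 0.21.

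**Figure D1:**
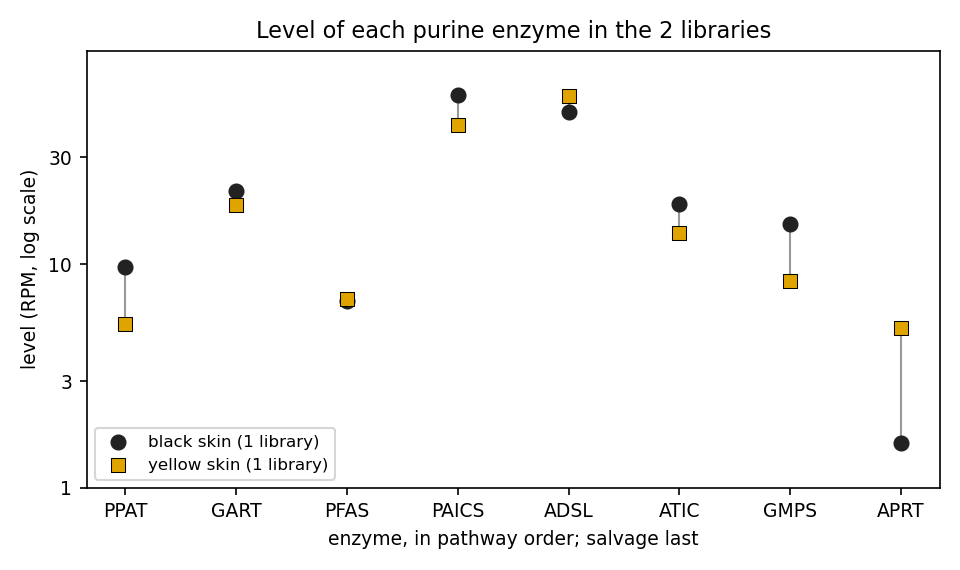
The level in RPM (log axis) of each of the 8 enzymes is shown for the black library (circles) and the yellow library (squares), with a line joining the pair. APRT, at 1.58 against 5.19 RPM, has the widest gap, and PFAS the narrowest, at 6.84 against 7.02 RPM. Heights of different enzymes are not comparable, since RPM is not scaled by length.

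The chain to IMP began with the enzyme that differed most within it. PPAT, unigene c108131_g3, was at 9.74 RPM (345 reads) in the black and 5.43 RPM (208 reads) in the yellow library. The black level was the higher by a ratio of 1.80 (1.40 to 2.31), and 2.83% of genes had a higher log2 ratio than its 0.74. GART, unigene c110959_g1, was at 21.3 RPM (754 reads) in black and 18.4 RPM (705 reads) in yellow skin. Its ratio of 1.16 (0.999 to 1.34) includes no difference, and its log2 ratio of 0.20 was within 0.01 of the median of all genes, with 49.1% of genes below it. PFAS, unigene c100852_g1, was at 6.84 RPM (242 reads) in black and 7.02 RPM (269 reads) in yellow skin. The levels differed by less than counting error, with a ratio of 0.974 (0.756 to 1.25), an interval that includes both no difference and the median ratio of all genes.

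The later steps went in opposite directions. PAICS, unigene c106749_g1, was at 57.0 RPM (2019 reads) in black and 42.1 RPM (1614 reads) in yellow skin, a ratio of 1.35 (1.23 to 1.49). ADSL, unigene c104663_g1, the enzyme after it, was at 48.1 RPM (1704 reads) in black and 56.6 RPM (2169 reads) in yellow skin. The yellow level of ADSL was the higher by a ratio of 1.18 (1.07 to 1.29), and 6.64% of genes had a lower log2 ratio than its -0.23. ATIC, unigene c103593_g1, which takes the chain to IMP, was back on the black side, at 18.6 RPM (658 reads) against 13.8 RPM (531 reads), a ratio of 1.34 (1.14 to 1.58). The interval of ATIC includes the median ratio of all genes, 1.17. TMM scaling moved the log2 ratio of PAICS from 0.43 to 0.25 and that of ADSL from -0.23 to -0.41, as it moved all genes towards the yellow side.

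Ratios between enzymes within a library do not depend on how the libraries are scaled. No counting interval was computed for such ratios, here or below, so the smaller gaps may lie within counting error. For each read of ADSL the black library held 1.18 reads of PAICS and its counterpart 0.744. For PPAT the same figures were 0.202 and 0.0959 reads per read of ADSL, and for ATIC 0.386 and 0.245. PPAT thus stood 2.11-fold higher against ADSL in the black library, PAICS 1.59-fold and ATIC 1.58-fold. ADSL is the chain enzyme furthest to the yellow side, and the gaps against other enzymes were smaller. PPAT stood 1.84-fold higher against PFAS and 1.55-fold against GART, and PAICS 1.17-fold against GART. Of all reads of the 8 enzymes, ADSL took 27.0% (exact interval 25.4 to 28.6%) in the black and 36.0% (34.3 to 37.8%) in the yellow library. PAICS took 32.0% (30.3 to 33.6%) and 26.8% (25.2 to 28.4%). The share of PAICS was thus larger in black than in yellow skin, and that of ADSL larger in yellow than in black skin. GART had 11.9% and 11.7%, with intervals that overlap.

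**Figure D2:**
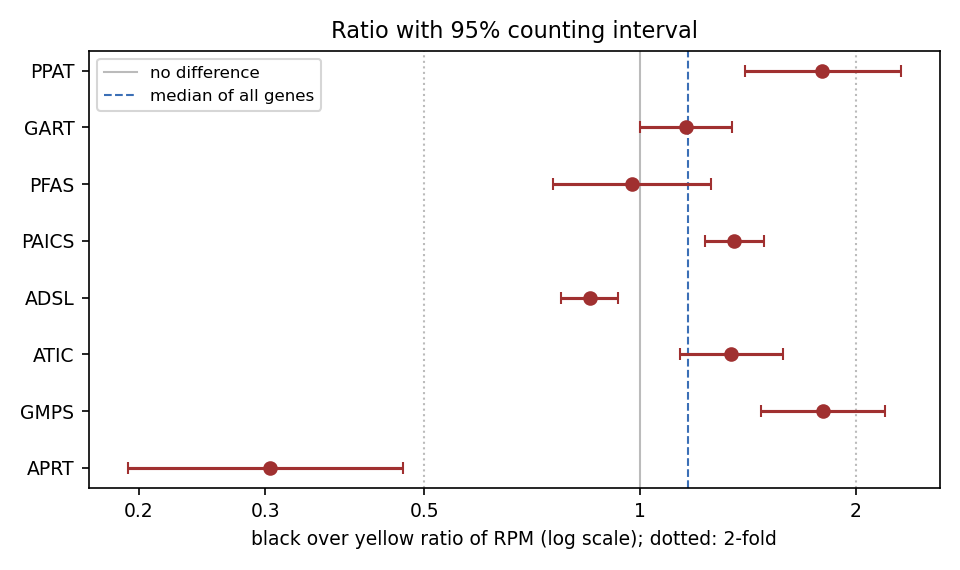
Points are black over yellow ratios of RPM (log axis) and bars are 95% counting intervals. The dashed line is the median ratio of all genes, 1.17, and dotted lines mark 2-fold. The bars of PPAT, PAICS and GMPS lie wholly to the right of the dashed line and those of ADSL and APRT wholly to its left.

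The counting intervals were also set against the median ratio of all genes. They lay wholly above it for 3 of the 8 enzymes (PPAT, PAICS and GMPS), as for 19.0% of all 3644 genes, and wholly below it for 2 (ADSL and APRT), as for 20.0% of genes. The other 3 (GART, PFAS and ATIC) included it. Intervals wholly above no difference were found for 4 enzymes, against 49.6% of genes, and wholly below it for 2, against 5.71% of genes.

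GMPS, which makes GMP by amination of XMP with glutamine, had the highest log2 ratio of the 8. Its unigene c111378_g1 was at 15.2 RPM (538 reads) in black and 8.45 RPM (324 reads) in yellow skin. The ratio was 1.80 (1.47 to 2.20) and the log2 ratio 0.78, which 2.28% of genes exceeded. Summed with c111378_g2, the other unigene of its assembly component, the ratio was 1.16 (1.0 to 1.34), near the median of all genes, 1.17. IMP dehydrogenase, which makes the XMP that GMPS uses, was matched as the zebrafish entry IMDH3. That entry is outside the fixed names and was added after its values were seen. Its matched unigenes, c104915_g3 and c104915_g4, summed to 7.01 RPM in black and 5.22 RPM in yellow skin, a ratio of 1.34 (1.02 to 1.77). They differed from each other. The former, matched to the catalytic IMPDH domain, had a ratio of 1.75 (1.17 to 2.64), and the latter, matched to the CBS domain, one of 1.06 (0.720 to 1.55). Other unigenes of the same assembly component without a named match brought the component to a ratio of 1.01 (0.881 to 1.15).

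The genes of the branch to AMP lay on the yellow side or near the median ratio of all genes, 1.17. Adenylosuccinate synthetase, which joins aspartate to IMP before ADSL acts again, was present as PURA1, the isozyme that is muscle-enriched in mammals, and PURA2. PURA1 was at 62.0 RPM in black and 76.3 RPM in yellow skin, higher in the latter by a ratio of 1.23 (1.14 to 1.33). PURA2 was at 31.6 and 27.9 RPM, with a black over yellow ratio of 1.13 (1.01 to 1.28). TMM scaling, which divides it by 1.14, brings it to the point of no difference. For each read of PURA1 the black library held 0.245 reads of GMPS and the yellow library 0.111, so GMPS stood 2.21-fold higher against PURA1 in black skin. PURA1 was the gene of this branch furthest to the yellow side, so the gap against PURA2 is smaller. Against IMDH3, which feeds it, GMPS stood 1.34-fold higher, a gap without a counting interval. These GMPS figures rest on c111378_g1 alone. The other unigene of its assembly component was 1.52-fold higher in yellow skin (1.21 to 1.92). In muscle, adenylosuccinate synthetase, ADSL and AMP deaminase form the purine nucleotide cycle. AMPD1, the muscle AMP deaminase, was likewise higher in yellow skin, at 235 RPM against 211 RPM, a ratio of 1.11 (1.06 to 1.16) in favour of yellow. Skeletal muscle markers went both ways, more of them to the yellow side. Of 14 fixed, 9 were measured, 6 of the 9 had a log2 ratio below 0 (also under each scaling tried), and the median of the 9 was -0.17. Over all genes the lower quartile was 0.05 as reported, so most genes lay above 0. After TMM scaling the median of all genes was 0.03, so values below 0 were more common. None of the 9 was past 2-fold on the yellow side, against 0.137% of all genes, and 1, AT2A1, was on the black side, against 0.823%. Summed, they reached 3050 RPM in black and 3407 RPM in yellow skin. Among them PGAM2, a glycolytic enzyme of muscle, had a log2 ratio of -0.45 and ASB2, a ubiquitin ligase subunit, one of -0.99, while AT2A1, a calcium pump, was at 1.26. ASB2 passed 2-fold under each other scaling. The part of muscle RNA in the values of ADSL, PURA1 and AMPD1 was not tested. In bulk skin, fewer cells of a type and less RNA per cell cannot be told apart.

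**Figure D3:**
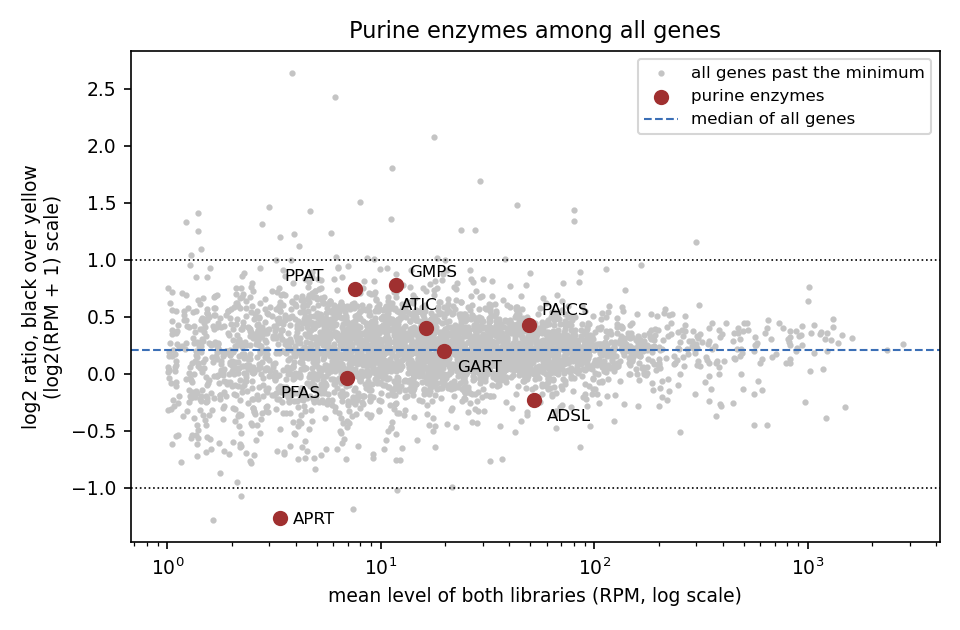
Each grey point is 1 of 3644 genes, with its mean level in RPM (log axis) and its log2 ratio of black over yellow on the log2(RPM + 1) scale. Red points are the 8 enzymes, the dashed line is the median of all genes (0.21), and dotted lines mark 2-fold. APRT lies at the lower edge, at -1.26, and GMPS and PPAT lie in the upper part of the cloud without reaching 2-fold.

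The widest difference was that of the unigene called APRT, a salvage enzyme only by its match to bacterial entries. This unigene, c104322_g2, was at 1.58 RPM (56 reads) in black and 5.19 RPM (199 reads) in yellow skin. The yellow level was 3.28-fold the black one (2.14 to 5.19), and the log2 ratio of -1.26 was rank 2 from the yellow end of the 3644 genes. The whole interval lay beyond 2-fold, which held for 0.714% of genes in either direction. Of the 746 genes with a mean of 1 to 5 RPM, the range that holds APRT, 3 were at least 2-fold higher in yellow skin, or 0.402%. Among single unigenes the share was 0.302%. APRT took 0.887% (exact interval 0.590 to 1.28%) of the reads of the 8 enzymes in the black and 3.31% (2.68 to 3.99%) in the yellow library. The intervals do not overlap. HPRT, the salvage enzyme for hypoxanthine and guanine, which also uses PRPP, did not share the difference. Its 7.32 RPM in black and 7.07 RPM in yellow skin gave a ratio of 1.04 (0.807 to 1.33). For each read of HPRT there were 0.216 reads of APRT in black skin and 0.734 in yellow skin, a 3.40-fold gap.

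The name APRT rests on a weaker match than those of the other enzymes. Whether the unigene is the fish gene of that enzyme was not settled. Its best protein matches were bacterial adenine phosphoribosyltransferases, with a BLASTX score of 97.4 (E-value 4e-22) and a BLASTP score of 104 (E-value 3e-26). In neither search was a vertebrate entry the best match. The closest match among all proteins was an uncharacterised zebrafish protein. That match scored 913, against 2118 to 4479 for the closest proteins of the other 7. The predicted reading frame of 217 codons carried the phosphoribosyltransferase domain, and the deposited annotation assigned it the adenine phosphoribosyltransferase orthologue group. The other 7 enzymes matched chicken, human or mouse entries with BLASTX scores of 631 to 1463 and an E-value given as 0. Their closest proteins overall were the named purine enzymes of zebrafish, grass carp or Atlantic herring. The reading frames ran from 405 codons in PFAS to 1018 codons in GART. PFAS had a BLASTX score of 631 against the whole unigene and a BLASTP score of 473 from the predicted protein. Whether the PFAS unigene covers the whole gene was not tested, so its level may be that of a part.

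The value of a gene also depends on how the assembly divided it. The part of an identifier before "_g" is the assembly component, and the unigenes of 3 enzymes shared theirs with others. Beside GMPS stood c111378_g2, without a named match, at 7.03 RPM in black and 10.7 RPM in yellow skin. It differed in the opposite direction, being 1.52-fold higher in yellow skin (1.21 to 1.92), and the summed component was 1.16-fold higher in black skin (1.0 to 1.34). Beside APRT stood c104322_g1, whose match is the small GTPase RAB34, at 5.0 RPM (177 reads) in black and 2.50 RPM (96 reads) in yellow skin, a ratio of 2.0 (1.39 to 2.90). That too was opposite to the enzyme, and the component as a whole was 1.17-fold higher in yellow skin (0.911 to 1.50), an interval that includes no difference. Beside PPAT stood c108131_g1, without a named match, and c108131_g2, whose match is the zinc finger entry ZSC29. Both leaned to black skin, by 1.76-fold (0.978 to 3.24) and 1.41-fold (0.977 to 2.04) with intervals that include no difference, and the component had a ratio of 1.67 (1.38 to 2.03). Whether the neighbours of GMPS and APRT belong to the same transcripts was not tested. A unigene without a named match may only lie outside the deposited annotation. The unigenes of GART, PFAS, PAICS, ADSL and ATIC were alone in their components.

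**Figure D4:**
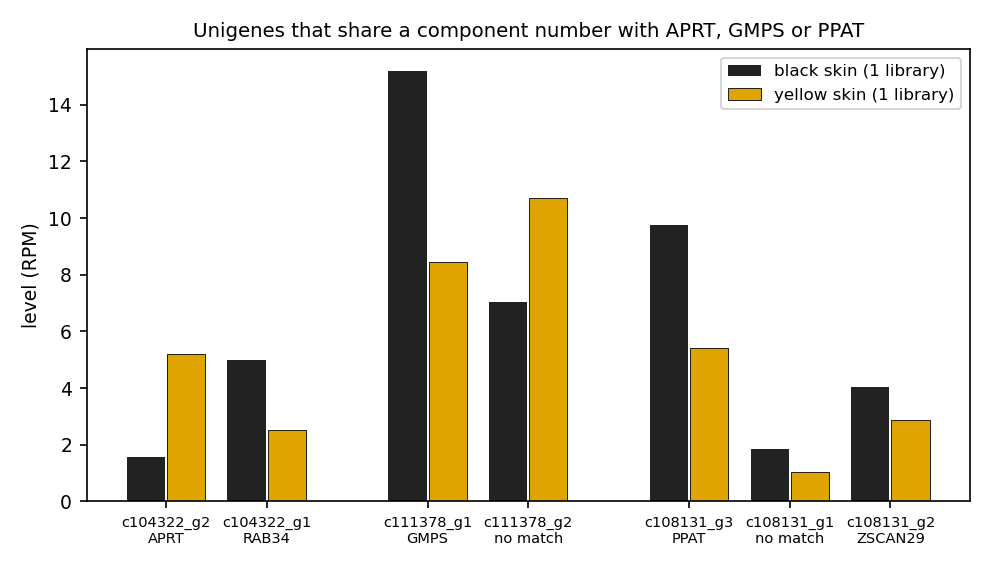
Bars give the level in RPM of each unigene that shares an assembly component with APRT, GMPS or PPAT, in the black library (black bars) and the yellow library (yellow bars). The neighbours of APRT and GMPS are opposite in direction to the enzyme (5.0 against 2.50 RPM for RAB34 and 7.03 against 10.7 RPM for c111378_g2), and those of PPAT have the same direction.

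None of the measured genes on the other purine lists reached 2-fold, a rule that 0.960% of all genes met. Of the 10 entries fixed for PRPP synthetases and adenylosuccinate synthetase, 4 were measured, none was past 2-fold, and the list median was a log2 ratio of 0.12. PRPS1, which makes the PRPP used by PPAT, APRT and HPRT, was at 43.4 RPM in black and 41.3 RPM in yellow skin, and its ratio of 1.05 (0.951 to 1.16) includes no difference. KPRA, a regulatory partner of PRPP synthetase, had a ratio of 1.31 (1.08 to 1.59). Among other salvage and interconversion enzymes, 8 of 12 were measured, none passed 2-fold, and the median was 0.08. After TMM scaling the medians of these lists were -0.06 and -0.10, and HPRT and PRPS1 leaned to the yellow side by less than counting error. AMPD3, an AMP deaminase, was at 12.9 and 8.22 RPM, a ratio of 1.57 (1.28 to 1.94). GMP reductase, which returns GMP to IMP, was present as GMPR2, with a ratio of 1.43 (1.12 to 1.84), and as GMPR1, at 8.45 and 9.86 RPM, a ratio of 0.857 (0.687 to 1.07). DCK, a deoxynucleoside kinase, had a log2 ratio of 0.36. Of 15 breakdown entries 2 were measured. Adenosine deaminase (ADA) had a ratio of 1.35 (1.23 to 1.49), and the nucleotidase 5NTC one of 1.08 (1.02 to 1.15).

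Downstream of the branches, 9 of 20 nucleotide kinases and reductase subunits were measured. None was past 2-fold, the list had a median log2 ratio of 0.28, and 7 exceeded the all-gene median. KAD5, an adenylate kinase at 1.16 and 1.70 RPM, had the lowest log2 ratio, -0.32, on few reads. The small subunits of ribonucleotide reductase, which makes deoxynucleotides, were both higher in black skin, RIR2 at 11.3 and 7.43 RPM with a ratio of 1.52 (1.22 to 1.90) and RIR2B at 26.3 and 17.1 RPM with a ratio of 1.54 (1.33 to 1.78). NDK6, a nucleoside diphosphate kinase, had a log2 ratio of 0.39. Guanylate kinase (KGUA), which phosphorylates GMP, had a ratio of 1.31 (1.19 to 1.44). Folate carries the one-carbon units that GART and ATIC use. Of 17 entries for its supply 11 were measured. None passed 2-fold, all 11 had log2 ratios above 0, 7 exceeded the all-gene median, and the list median was 0.26. Most genes also lay above 0, with a lower quartile of 0.05 and a median of 0.21 over all genes. After TMM scaling 8 of the 11 were above 0 and the list median was 0.08. Dihydrofolate reductase (DYR) was at 10.2 RPM in black and 5.84 RPM in yellow skin, 1.75-fold apart (1.37 to 2.23). The mitochondrial enzymes GLYM, a serine hydroxymethyltransferase, and C1TM, a formate-tetrahydrofolate ligase, had ratios of 1.39 (1.24 to 1.57) and 1.45 (1.04 to 2.04). In the pyrimidine pathway, shown for comparison, 10 of 21 were measured, none passed 2-fold, and the median was 0.16, with KTHY, a thymidylate kinase, at 0.36, TYSY, thymidylate synthase, at 0.29 and UMPS, which makes UMP, at 0.23. Its median was -0.01 after TMM scaling.

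The deposited annotation assigns genes to KEGG maps, a grouping that does not depend on the fixed names. It was used after the values were seen. All 8 enzymes were on its purine metabolism map, with 95 measured genes in all. Of these, 46 lay above and 49 below the median of all genes, with a median log2 ratio of 0.20. The genes on the map past 2-fold were APRT on the yellow side and ADCY5, an adenylate cyclase, on the black side. Over all genes 0.137% and 0.823% passed 2-fold in these directions.

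**Figure D5:**
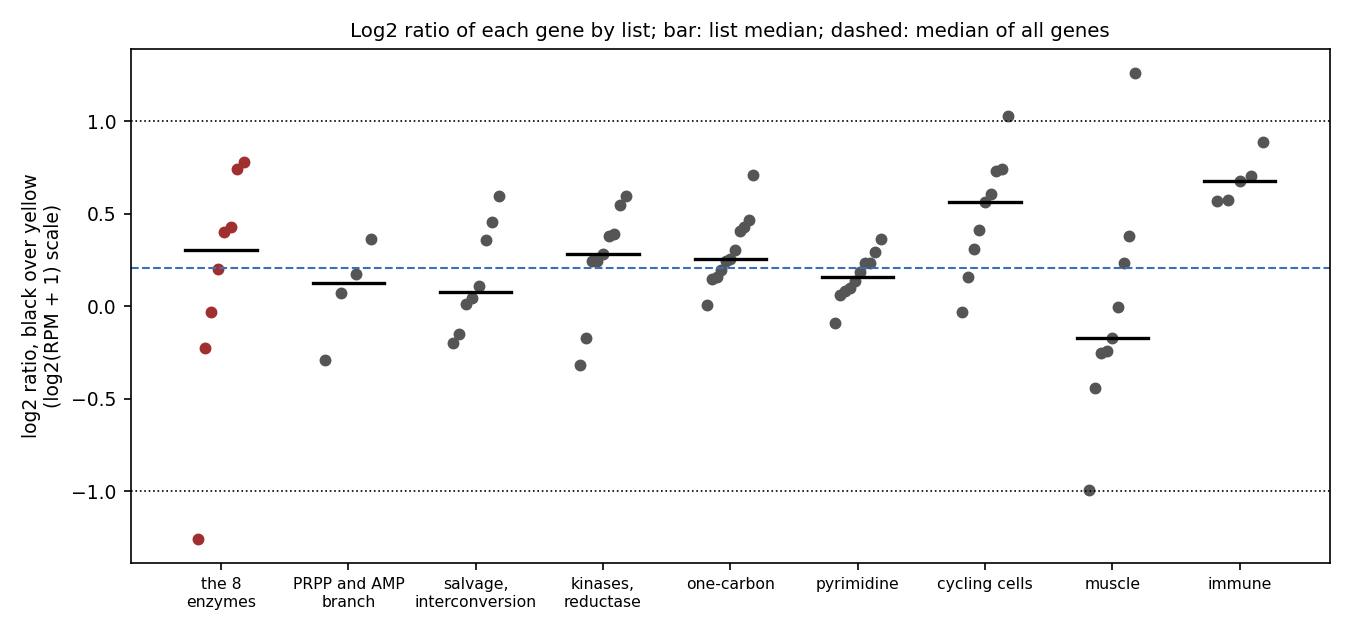
Points are log2 ratios of black over yellow (log2(RPM + 1) scale) for the measured genes of each fixed list, and short bars are list medians. The dashed line is the median of all genes (0.21), and dotted lines mark 2-fold. The 8 enzymes spread from -1.26 to 0.78, and the medians of the cycling cell (0.56) and immune (0.67) lists lie above that of the enzymes (0.30).

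Markers of other cells were read beside these results, with 0.960% of all genes past 2-fold in either direction. Of 18 cycling cell markers 9 were measured, 1 passed 2-fold, 7 exceeded the all-gene median, and the median log2 ratio was 0.56. Their summed level was 110 RPM in black and 83.4 RPM in yellow skin. Cyclin A2 (CCNA2) was past 2-fold at 8.64 and 3.73 RPM, though under none of the other scalings, KIF11, a mitotic motor, had a log2 ratio of 0.74 and MCM3, a replication helicase subunit, one of 0.73. The 5 immune markers measured of 15 fixed had log2 ratios of 0.57 to 0.89, and summed to 182 RPM in black and 111 RPM in yellow skin, with CSF1R at 0.89, the T cell kinase LCK at 0.70 and the chemokine receptor CXCR4 at 0.67. Their part in the higher levels of PPAT, GMPS and PAICS was not tested. Keratinocyte markers had a median of 0.31 over 5 of 14 genes, led by DSG2 at 0.53, with DESP at 0.33 and CADH1 at 0.31. Of the 5, 4 exceeded the all-gene median and the lowest was at 0.07. After TMM scaling the keratinocyte median was 0.13. Of 10 red blood cell markers 3 were measured, with a median of -0.20. They included CAHZ, a carbonic anhydrase past 2-fold at -1.07, TFR1, the transferrin receptor, at 0.43 and HEM0, a heme synthesis enzyme, at -0.20.

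Few pigment cell markers could be set beside the enzymes. Of 10 iridophore markers other than the enzymes, 2 were measured. APOD, apolipoprotein D, was at 0.537 RPM (19 reads) in black and 2.74 RPM (105 reads) in yellow skin. It was 5.10-fold higher in yellow skin (2.53 to 11.5), with a log2 ratio of -1.28, the lowest among the 3644 genes. ALK, a receptor kinase related to LTK, was at 11.4 and 12.3 RPM, a ratio of 0.929 (0.765 to 1.13). LTK, PNPH, TFEC and the others on that list were not analysed here. Melanophore markers were higher in the library labelled black. All 3 measured of 12 fixed were past 2-fold, against 0.823% of all genes in that direction. TYRP1 was at a log2 ratio of 2.64, PMEL at 2.43 and NCKX5 at 1.33. Together with tyrosinase (TYRO), which was below the minimum, they summed to 21.5 RPM in black and 1.96 RPM in yellow skin. KIT, on the fixed list, was not among the matches used here. The entry KITA, outside the list, was at 91.6 RPM in black and 65.7 RPM in yellow skin. Its log2 ratio of 0.47 was short of 2-fold. Of 8 xanthophore markers 5 were measured, with a median of 0.31 and none past 2-fold. GCH1, which uses GTP to begin pteridine synthesis, was at 6.78 RPM in black and 11.7 RPM in yellow skin, a log2 ratio of -0.71. On that list CSF1R, named above, and SCRB1, a carotenoid receptor at 0.68, lay on the black side.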

How the data were processed

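RNA of black and yellow skin was sequenced, with 1 library per colour. RNA was taken up in Trizol and libraries were made by Illumina protocols, per the labels. The submitters' processing notes name the build GRCz11 with no role, and no source used here names the assembler, aligner or counter. The authors deposited 1 normalised signal per unigene and library, which the values show to be RPM. Repeated rows (4131 of 128781) held the same value and were used once. The steps between values gave back whole reads (0.0282 RPM a read in black, 0.0261 in yellow), with 100% of values whole within 0.1 read when the lowest value is taken as 0 reads. A count of 0 allows up to 3 reads, 0.0847 and 0.0782 RPM.

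The deposited annotation, which holds entries other than measurements (alignment scores and names per the file headers), covered 5676 unigenes, or 4.55%, and may be part of a longer table. Genes without a name in it were not analysed here. Unigenes were joined by BLASTX entry name (BLASTP where empty), and near-identical copies cannot be separated. Genes with a mean of at least 1 RPM were used, and called at 2-fold on log2(RPM + 1). Intervals are Clopper-Pearson at 95%, given the summed reads of both libraries, with each read pair counted once. That assumes that mates were counted separately, which was not tested. Counting each read by itself would narrow every interval. Readings that rest on a limit close to a line, as for GART and ATIC, could then change. The intervals cover counting error only. Removal of PCR copies is not stated. The steps were tested on simulated data drawn from the counting model that the intervals assume. That test cannot check the model itself, the counting of mates or any spread between fish.

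The enzymes and lists were chosen with earlier results of these data known. Named genes were all 8 enzymes and, from each list, those past 2-fold and the up to 3 with the largest absolute log2 ratio. HPRT, PRPS1, GMPR1, AMPD1, KGUA, KAD5, ADCY5, KITA and IMDH3 were added after their values were seen. Python 3.11.15, numpy 2.4.6, pandas 2.3.3, scipy 1.17.1 and edgeR 4.0.16 (TMM factors only) were used.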

Additional observations from a re-analysis of the deposited data

How the results depend on the processing

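The number of enzymes at least 2-fold apart, 1 as reported (APRT), was 0 with a pseudocount of 5, at which APRT had a log2 ratio of -0.63. It was also 0 at a minimum mean of 5 RPM, which leaves APRT out, with a 4-fold rule, and when all unigenes of an assembly component were summed, at which APRT was at -0.20. The last alternative was chosen after seeing the data. It adds to APRT a unigene matched to another gene, RAB34, and it also moved GMPS to a log2 ratio of 0.21. The count was 1 under the others tried (a pseudocount of 0.1, no minimum, TMM and median-of-ratios scaling, totals without the 2 or the 100 most abundant unigenes, the most abundant unigene, BLASTP names, an E-value limit and the interval rule). The 4 other scalings moved every enzyme towards the yellow side, PAICS from 0.43 to between 0.25 and 0.29 and ADSL from -0.23 to between -0.41 and -0.37. Under TMM scaling GART went from 0.20 to 0.02 and ATIC from 0.40 to 0.22. PPAT went from 0.74 to 0.58 and GMPS from 0.78 to 0.61. No enzyme changed sign under an alternative that gave it a value. TMM scaling lowered the median of all genes from 0.21 to 0.03 and that of the enzymes from 0.30 to 0.12, and changed the calls over all genes from 30 black and 5 yellow to 22 and 7. PPAT, GMPS, PAICS and ATIC stayed above the median of all genes under each scaling. With assembly components summed, GMPS fell just below that median, at 0.2056 against 0.2066. No paired analysis was possible because each colour has 1 library, which also leaves no replicate to leave out and no count test. At the depth of APRT, 56 and 199 reads, the interval spans more than 2-fold.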
